A study of Mus musculus with 12 samples.

Results

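Transcripts of 10 enzyme genes that modify and cross-link collagen were followed across 12 RNA-seq libraries of mouse C2C12 cells. They were taken by name, with no threshold on their values, though earlier results of these data were known when the list was made. They are 10 of 53801 gene identifiers in the deposited counts. All 10 passed the filter on low counts. C2C12 is a myoblast line that can fuse into muscle fibres in culture. Control cells (Ctrl in the labels) and cells with Cebpg knocked down (Sh2) each received DMSO, the solvent, or thapsigargin for 6 h, with 3 libraries in each of the 4 groups. Thapsigargin blocks the SERCA calcium pump, so the endoplasmic reticulum (ER) loses calcium and its proteins misfold. Sh2 is the only knockdown label, and nothing says which construct the control carried. Cebpg loss, off-target effects and lasting differences between both populations cannot be told apart. C2C12 comes from the source field. The growth text instead mentions HeLa, a human line, but the genes counted are those of the mouse.

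Collagen chains are modified inside the ER before they leave the cell. Prolyl 4-hydroxylases add hydroxyl groups to prolines, which lets the triple helix hold at body temperature. Lysyl hydroxylases do the same to lysines, some of which then carry sugars. Outside the cell, lysyl oxidases turn lysines and hydroxylysines into aldehydes that react into cross-links between collagen molecules, and peroxidasin joins collagen IV molecules in basement membranes. Muscle precursors make both fibrillar collagen and basement membrane collagen.

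Libraries held 29424644 to 47719574 gene reads, and the least covered enzyme gene in any library still had 546 reads. Cebpg, which encodes the C/EBP gamma transcription factor, checked the labels. It held 54.6 ± 5.21 CPM (SD, n = 3) in control DMSO cells and 4.52 ± 0.723 CPM in knockdown DMSO cells. With thapsigargin it held 216 ± 3.96 CPM in control and 5.66 ± 0.419 CPM in knockdown cells. CPM, a gene's reads relative to its library's size, were scaled by the TMM factors of edgeR. All 8 myoblast markers checked, among them Myod1, Myf5 and Des, reached a mean of 1 CPM in control DMSO cells. In the other 3 groups 7 did, and Pax7 fell below that level. The summed myoblast markers held 2274 to 2471 CPM in control DMSO libraries and 1612 to 1671 CPM in knockdown thapsigargin libraries, with the other groups in between. Des and Itga7 made up most of that sum, and Myf5 went the other way with thapsigargin, from 61.8 ± 6.18 to 252 ± 7.15 CPM in control and from 73.6 ± 2.55 to 417 ± 36.6 CPM in knockdown cells. Summed markers of 8 leukocyte genes stayed at 3.54 to 8.88 CPM. The 8 epithelial markers summed to 14.4 to 15.6 CPM in control DMSO and 31.1 to 33.8 CPM in knockdown thapsigargin libraries, most of it Krt14. Epcam was at 0 in both control groups. The 5 epithelial markers that passed the filter were all called higher with thapsigargin in control cells (edgeR, adjusted p under 0.05). In knockdown cells 3 were called higher. Over all genes 37.7% were called higher in control and 35.4% in knockdown cells. The filter keeps a gene that is high in only some groups. Krt8 went from 0.116 ± 0.0772 to 1.03 ± 0.32 CPM in control cells, and Krt18 from 0 to 1.44 ± 0.103 CPM. The count was thus partly set by the filter and is no test. The 6 endothelial markers summed to 4.2 to 5.12 CPM in control DMSO and 27.5 to 32.4 CPM in control thapsigargin libraries. The 6 adipocyte markers summed to 18 to 20.8 CPM and 51.7 to 58.4 CPM in the same groups, most of it Pparg, while Lep was at 0 in all 4 groups. Osteoblast and chondrocyte markers, 7 genes, ranged from 171 to 217 CPM, most of it Sox9 and Runx2. Acan was at 0 in both control groups. Col2a1 rose with thapsigargin, from 0.289 ± 0.18 to 2.03 ± 0.606 CPM in control and from 0.583 ± 0.0838 to 4.01 ± 0.424 CPM in knockdown cells. The part of these markers in the results below was not tested. Fewer cells of a type and less RNA per cell cannot be told apart in bulk libraries.

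The order of the enzymes' levels was read per length, as CPM per kb of merged exons. In control DMSO cells Lox stood first at 283 ± 12 CPM per kb, followed by P4ha1 at 76.7 ± 1.62 and Loxl1 at 43.6 ± 1.91. Plod3 held 34.6 ± 0.149 CPM per kb, Loxl3 29.1 ± 0.64, Plod2 25.5 ± 1.87 and P4ha2 24.6 ± 0.936. Pxdn held 18.9 ± 0.593 CPM per kb, Plod1 15.7 ± 0.551 and Loxl2 10.4 ± 0.423. Neighbours in this order did not overlap between libraries, except Plod2 with P4ha2. Annotated lengths differ among transcripts, and with the longest transcript in place of merged exons P4ha2 rose to rank 3 at 50.1 CPM per kb and Plod1 read 25.9. Lox kept the top rank in all 4 groups by either length. Pxdn moved from rank 8 in control DMSO cells to rank 10 under thapsigargin in both cell populations.

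What 6 h of ER stress does to these transcripts was asked first in control cells. All 10 enzyme genes fell with thapsigargin, and for each the 3 treated libraries lay below the 3 DMSO libraries. Among all 15828 genes tested, 37% were called lower and 37.7% higher (edgeR, adjusted p under 0.05), and 77% had libraries that did not overlap. The median log2 change of the 10 was -1.03, against -0.00 over all genes. The falls ranged from 0.39 in log2 for P4ha2 to 3.35 for Pxdn. In knockdown cells all 10 fell too, with a median of -0.60 against 0.00 over all genes, where 34.4% of genes were called lower, 35.4% were called higher and 71.4% did not overlap.

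Pxdn (ENSMUSG00000020674, chromosome 12, 29937608 to 30017658 in GRCm38) encodes peroxidasin, the haem peroxidase that forms sulphilimine bonds between collagen IV molecules. Control libraries had 176, 181 and 188 CPM in DMSO but only 17.8, 17.6 and 18.2 CPM with thapsigargin. Knockdown libraries held 165, 158 and 174 CPM in DMSO and 18.2, 17.7 and 17.8 CPM with thapsigargin. The treated libraries of both populations met at the same level, and the untreated ones stood far above. Pxdn fell 10.2-fold in control cells (log2 change -3.35, SE 0.05, adjusted p = 3.6e-32) and 9.24-fold in knockdown cells (-3.21, SE 0.05, adjusted p = 3.5e-31). Only 15 of 15828 genes had a lower log2 change in control cells, and 12 in knockdown cells.

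Promoter sequences from RefSeq (GRCm38.p6) were matched for 5 of the 10 genes, Plod1, Plod3, P4ha1, P4ha2 and Pxdn. The 4 chosen run 250 bases up to the RefSeq start. For Pxdn and P4ha2 that start lies inside the GENCODE gene, so their stretch is upstream of the RefSeq start and not of the first base of the gene as located here. They belong to the gene that fell most, to the prolyl hydroxylase pair that was lower in knockdown cells, and to Plod3, which was higher in them. The printed 4 are also those in which the motif marked below was found. Plod1, not printed, was lower in knockdown DMSO cells too (-0.17). Capitals mark ACGTG, a form of the core of hypoxia response elements, on either strand. The variant GCGTG, which also occurs in the Plod1 window, was not searched and is unmarked.
Pxdn, chr12:29937786-29938035, plus strand: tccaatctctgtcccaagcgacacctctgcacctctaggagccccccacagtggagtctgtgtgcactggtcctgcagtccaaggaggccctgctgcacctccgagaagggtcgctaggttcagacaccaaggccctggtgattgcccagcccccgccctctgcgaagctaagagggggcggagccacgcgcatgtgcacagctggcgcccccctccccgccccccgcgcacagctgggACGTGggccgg
P4ha1, chr10:59323046-59323295, plus strand: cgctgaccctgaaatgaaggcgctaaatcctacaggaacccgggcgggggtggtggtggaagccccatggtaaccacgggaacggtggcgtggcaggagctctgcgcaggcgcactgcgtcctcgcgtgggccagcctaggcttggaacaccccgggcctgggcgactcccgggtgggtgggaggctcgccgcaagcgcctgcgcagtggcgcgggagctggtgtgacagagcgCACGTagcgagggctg
P4ha2, chr11:54100674-54100923, plus strand: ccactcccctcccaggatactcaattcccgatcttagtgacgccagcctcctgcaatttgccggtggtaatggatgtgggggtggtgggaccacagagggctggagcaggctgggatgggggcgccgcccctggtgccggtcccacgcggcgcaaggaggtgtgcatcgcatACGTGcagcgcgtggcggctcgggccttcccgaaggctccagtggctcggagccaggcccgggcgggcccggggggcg
Plod3, chr5:136986769-136987018, plus strand: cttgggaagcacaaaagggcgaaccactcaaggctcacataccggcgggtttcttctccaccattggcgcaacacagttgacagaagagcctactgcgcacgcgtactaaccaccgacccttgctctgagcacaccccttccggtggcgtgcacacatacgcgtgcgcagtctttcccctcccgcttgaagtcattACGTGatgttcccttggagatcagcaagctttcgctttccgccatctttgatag
A set of 4 motifs was searched on both strands of windows of 300 bases, which also cover 50 bases after the start. ACGTG was found in the windows of Pxdn, P4ha1, P4ha2 and Plod3 but not in that of Plod1, and 19.6% of 32851 RefSeq windows hold it. It lay 11 bases before the start in Pxdn, 16 before it in P4ha1, 78 before and 11 after it in P4ha2, and 54 before it in Plod3. No match was found in the 5 windows for TGATGNAA (the C/EBP and ATF composite core, in 3.97% of windows), for the ER stress element (CCAAT and CCACG with 9 bases between them, 0.119%) or for TGACGTGG (the ATF6 and XBP1 core, 0.676%), which contains ACGTG. The windows of Pxdn, P4ha1 and P4ha2 are 70.0% to 70.3% G and C, above the median of 52.7%, and Plod3 is at 53.3%. A match is a stretch of letters, not a measured binding site.

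The lysyl oxidases act outside the cell and need copper. Lox (ENSMUSG00000024529, chromosome 18), the founding member, held 1344, 1301 and 1414 CPM in control DMSO libraries and 582, 588 and 608 CPM with thapsigargin. Knockdown libraries held 967, 883 and 978 CPM in DMSO and 479, 496 and 456 CPM with thapsigargin. The 4 groups did not overlap, and the order ran from untreated control to treated knockdown cells. With thapsigargin Lox fell 2.28-fold in control cells (-1.19, SE 0.05, adjusted p = 2.4e-21) and 1.97-fold in knockdown cells (-0.98, SE 0.05, adjusted p = 8.55e-19).

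Loxl1 (ENSMUSG00000032334, chromosome 9, 58287738 to 58313186) is best known for elastic fibre cross-linking. It held 142, 151 and 138 CPM in control DMSO libraries and 55, 56.1 and 68.9 CPM with thapsigargin. Knockdown libraries held 61.1, 61.1 and 59.4 CPM in DMSO and 40.2, 38.5 and 41.1 CPM with thapsigargin. Untreated knockdown cells thus lay within the range of treated control cells. Thapsigargin lowered Loxl1 2.4-fold in control cells (-1.26, SE 0.06, adjusted p = 1.36e-17) and 1.52-fold in knockdown cells (-0.60, SE 0.06, adjusted p = 1.74e-09).

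Loxl2 (ENSMUSG00000034205, chromosome 14, 69609068 to 69695834) encodes an oxidase that acts on collagen IV among other substrates. It held 57.2, 53.6 and 57.8 CPM in control DMSO libraries and 27.3, 27.7 and 28.1 CPM with thapsigargin. In knockdown libraries it held 43, 44.2 and 40.6 CPM in DMSO and 27.6, 29.2 and 27.5 CPM with thapsigargin. The DMSO groups were apart and the treated groups overlapped. Its fall with thapsigargin was 2.03-fold in control cells (-1.02, SE 0.06) and 1.51-fold in knockdown cells (-0.60, SE 0.06).

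Loxl3 (ENSMUSG00000000693, chromosome 6, 83034173 to 83052562), which oxidises collagens and fibronectin, fell the most of the oxidases. It went from 134 ± 2.94 to 36.7 ± 1.87 CPM in control cells (3.65-fold, -1.87, SE 0.05, adjusted p = 3.8e-26) and from 121 ± 3 to 36.6 ± 0.844 CPM in knockdown cells (3.31-fold, -1.73, SE 0.05, adjusted p = 1.11e-24). Only 1.97% and 1.34% of genes had a lower log2 change in the respective comparison. Exons of Htra2, on the other strand, share 535 bases with those of Loxl3, and nothing states whether counting used the strand. Htra2 changed by -0.31 in log2 (SE 0.06) with thapsigargin in control cells and by -0.05 (SE 0.06, adjusted p = 0.443) in knockdown cells.

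The lysyl hydroxylases differed in size of response. Plod1 (ENSMUSG00000019055, chromosome 4, 147909753 to 147936767), which hydroxylates lysines of the helix, fell from 106 ± 3.73 to 51.9 ± 2.43 CPM in control cells (-1.04, SE 0.05) and from 94.7 ± 1.17 to 46.6 ± 1.86 CPM in knockdown cells (-1.02, SE 0.05). Plod2 (ENSMUSG00000032374, chromosome 9, 92542223 to 92608428) hydroxylates lysines of the telopeptides, the chain ends whose hydroxylysines give stable cross-links. It fell from 138 ± 10.1 to 97 ± 1.72 CPM in control cells (-0.50, SE 0.05) and from 152 ± 7.57 to 101 ± 4.04 CPM in knockdown cells (-0.59, SE 0.05). Plod3 (ENSMUSG00000004846, chromosome 5, 136987019 to 136996648) encodes the isoenzyme that also attaches sugars to hydroxylysine. Its level went from 156 ± 0.672 to 117 ± 8.3 CPM (-0.42, SE 0.05) and from 175 ± 6.53 to 135 ± 1.73 CPM (-0.37, SE 0.05). The fall of Plod1 was thus about 1 in log2 in each population, and those of Plod2 and Plod3 were smaller. Plod3 shares 529 exon bases with Znhit1 on the other strand, which changed by -0.53 (SE 0.08) in each population.

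P4ha1 (ENSMUSG00000019916, chromosome 10, 59323296 to 59373304) and P4ha2 (ENSMUSG00000018906, chromosome 11, 54100095 to 54131665) encode catalytic alpha subunits of prolyl 4-hydroxylase. P4ha1 held 308, 316 and 322 CPM in control DMSO libraries and 220, 234 and 238 CPM with thapsigargin. Knockdown libraries held 229, 228 and 233 CPM in DMSO and 153, 151 and 150 CPM with thapsigargin. Untreated knockdown cells again lay within the range of treated control cells, and treated knockdown cells stood below every other group. P4ha1 fell by 0.45 in log2 with thapsigargin in control cells (SE 0.04, adjusted p = 1.3e-11) and by 0.61 in knockdown cells (SE 0.04, adjusted p = 2.28e-14). P4ha2 fell from 153 ± 5.84 to 117 ± 3.99 CPM in control cells (-0.39, SE 0.04) and from 125 ± 1.56 to 91.8 ± 3.16 CPM in knockdown cells (-0.45, SE 0.05).

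Whether Cebpg knockdown alone moves these enzymes was read in DMSO, a comparison that shares its control libraries with the thapsigargin effect in control cells. Of the 10 genes 8 were lower and 2 higher in knockdown cells, where 26.5% of all genes tested were called lower and 25% higher. Libraries did not overlap for 9 of 10, against 57.1% of all genes. The median log2 change was -0.23, against 0.00 over all genes. Loxl1 changed most, 2.38-fold lower (-1.25, SE 0.06, adjusted p = 1.88e-16), and 3.06% of genes had a lower log2 change. Lox was 1.44-fold lower (-0.52, SE 0.05, adjusted p = 2.37e-11), P4ha1 1.37-fold lower (-0.45, SE 0.04, adjusted p = 6.05e-11), Loxl2 1.32-fold lower (-0.40, SE 0.05) and P4ha2 1.22-fold lower (-0.29, SE 0.04). The other changes were small. Plod1 (-0.17, SE 0.05, adjusted p = 0.00409), Loxl3 (-0.14, SE 0.05, adjusted p = 0.00872) and Pxdn (-0.14, SE 0.04, adjusted p = 0.0116) were lower, and Plod3 (0.16, SE 0.05, adjusted p = 0.00456) and Plod2 (0.15, SE 0.05, adjusted p = 0.0148) were higher. The Plod2 libraries overlapped, with 135, 129 and 149 CPM in control and 153, 144 and 159 CPM in knockdown cells. Its call was lost without control replicate 1 (adjusted p = 0.0661), control replicate 2 (0.0818) or knockdown replicate 3 (0.0839). Over 21 alternatives its adjusted p ranged from 0.00166 to 0.0839. The Pxdn call was lost without control replicate 3 (adjusted p = 0.0688) or knockdown replicate 2 (0.0851), in a range of 0.00326 to 0.0851.

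Under thapsigargin, of the 10 genes 5 were lower, 1 was higher and 4 did not pass, where 28.4% of all genes were called lower and 28.5% higher. Libraries did not overlap for 6 of 10, against 62.2% of all genes, so the count of enzymes was near that share. P4ha1 was 1.52-fold lower in knockdown cells (-0.61, SE 0.04, adjusted p = 3.73e-14), Loxl1 1.5-fold lower (-0.59, SE 0.06, adjusted p = 4.11e-09), P4ha2 1.27-fold lower (-0.35, SE 0.05) and Lox 1.24-fold lower (-0.31, SE 0.05). Plod3 was higher (0.20, SE 0.05, adjusted p = 0.000428). Plod1 was lower (-0.15, SE 0.05, adjusted p = 0.0106), a call lost without control thapsigargin replicate 3 (adjusted p = 0.0502) and with scaling by total reads (-0.02, adjusted p = 0.756), in a range of 0.00454 to 0.756 over 21 alternatives. Loxl2 (0.02, SE 0.06), Loxl3 (-0.0032, SE 0.05), Pxdn (0.0035, SE 0.06) and Plod2 (0.06, SE 0.05) did not pass. Scaling matters for small changes here. With total reads in place of TMM the median over all genes moved from 0.016 to 0.149, the share of calls that were higher moved from 50.1% to 66.6%, and Loxl2 (0.15, adjusted p = 0.0212), Loxl3 (0.13, adjusted p = 0.0304) and Plod2 (0.19, adjusted p = 0.00214) were then called higher. All 3 values lay near that shifted median.

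The difference between the thapsigargin effects of the cell populations was tested itself. It passed for 4 of the 10 genes, 3 with a positive and 1 with a negative difference, where 17.7% of all genes were called in each direction. For Loxl1 the effect in knockdown cells minus that in control cells was 0.66 (SE 0.09, adjusted p = 4.98e-07), for Loxl2 0.42 (SE 0.08, adjusted p = 7.62e-05) and for Lox 0.21 (SE 0.07, adjusted p = 0.0114), so these oxidases fell less in knockdown cells, from a lower start. For P4ha1 it was -0.15 (SE 0.06, adjusted p = 0.0423). That call was lost when any 1 of 7 of the 12 libraries was left out (control DMSO replicate 1, control thapsigargin replicates 2 and 3, knockdown DMSO replicates 1 and 3, knockdown thapsigargin replicates 2 and 3), with adjusted p from 0.0627 to 0.116. It was also lost with upper quartile scaling (0.0583), without the filter (0.183) and with total reads (0.0049, adjusted p = 0.962), in a range of 0.0171 to 0.962 over 20 alternatives. Pxdn (0.14, SE 0.07, adjusted p = 0.15), Loxl3 (0.14, SE 0.07, adjusted p = 0.114), Plod2 (-0.09, SE 0.07), P4ha2 (-0.06, SE 0.06), Plod3 (0.04, SE 0.07) and Plod1 (0.01, SE 0.07) did not pass. With total reads the median over all genes moved from 0.013 to 0.171 and the share of positive calls from 49.9% to 75.6%. Loxl3 (0.30), Pxdn (0.30) and Plod3 (0.20) then passed as well.

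How the level per kb divides among isoenzymes was computed per library for the listed genes, so the oxidase sum leaves out Loxl4 and the alpha subunit sum leaves out P4ha3. An exact two-sided permutation test of 3 against 3 libraries cannot go below 0.1, and over the 32 shares compared the lowest adjusted p was 0.145, so none passed. Libraries did not overlap in 22 of the 32. In level, 57.1% to 77% of all genes did not overlap in the same comparisons. Shares within a family depend on each other and the comparisons reuse groups, so the 32 are not independent. Lox made up 77.3% ± 1.17 of the summed level of the 4 listed oxidases in control DMSO cells and 78.9% to 79.9% in the other groups. With Loxl4 in the sum, added after the values were seen, Lox held 76.5% ± 1.13 in control DMSO cells, 77% ± 0.691 in treated control cells, 77% ± 1.02 in knockdown DMSO cells and 74.6% ± 1.09 in treated knockdown cells, so the direction for the last group turned. Loxl4 itself held 1.05% ± 0.0431, 3.62% ± 0.18, 2.39% ± 0.0938 and 6.46% ± 0.321 in the same order. The share of Loxl1 was 11.9% ± 0.832 in control and 7.36% ± 0.401 in knockdown DMSO cells, with libraries apart. Loxl3 held 7.95% ± 0.382 and 10.6% ± 0.351 in the same groups, and 5.14% ± 0.414 and 6.35% ± 0.294 with thapsigargin. Among lysyl hydroxylases Plod1 held 20.7% ± 0.494 in control DMSO cells and the lowest share, 12.4% ± 0.582, in treated knockdown cells. Plod3 went the other way, from 45.7% ± 1.35 to 53.8% ± 0.393. Plod2 kept between 33.6% and 34.9% in all 4 groups, and its libraries overlapped in every comparison. P4ha1 held 75.7% ± 0.385 of the summed P4ha1 and P4ha2 level in control DMSO cells and 71.4% ± 0.867 in treated knockdown cells. With P4ha3 in the sum its share was 68.7% ± 0.361 and 62.1% ± 1.11, and that of P4ha3 was 9.3% ± 0.145 and 13% ± 1.14. With the longest transcript as length, and without P4ha3, the share of P4ha1 read 60.9% and 55.5%.

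The transcripts of the collagen chains that these enzymes act on also changed. Of 10 substrate genes tested (12 listed) 8 fell and none rose with thapsigargin in control cells, with a median of -0.68, against 37% of all genes called lower and 37.7% higher. Among substrate genes with a group mean of 5 CPM or more, the fibrillar chain genes Col3a1 (-1.76, SE 0.07), Col1a1 (-1.47, SE 0.06) and Col1a2 (-1.02, SE 0.05) fell most. The basement membrane chain gene Col4a1 (-0.75, SE 0.08) followed. Col11a1, at a low level, went from 0.405 ± 0.181 to 0.178 ± 0.1 CPM. In knockdown DMSO cells 5 substrate genes were lower and 2 higher, against 26.5% and 25% of all genes, and the 2 were Col4a1 (1.14, SE 0.08) and Col4a2 (0.94, SE 0.06). Col3a1 (-1.06, SE 0.07) and Col5a3 (-1.79, SE 0.09) were lower. Enzyme levels were therefore also set against substrate levels, both summed per kb, as enzyme per 1000 of substrate. These ratios were chosen after the values were seen and carry no test. They use merged exon lengths only and were not recomputed with the longest transcript. Their size depends on that choice of length.

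Pxdn stood at 193 ± 4.01 per 1000 of collagen IV chain level (Col4a1, Col4a2, Col4a5 and Col4a6) in control DMSO cells, at 30.6 ± 3.27 in treated control cells, at 86.1 ± 7.52 in knockdown DMSO cells and at 18.5 ± 0.323 in treated knockdown cells. The 4 groups did not overlap. Between the DMSO groups Pxdn itself differed little, and collagen IV went from 97.9 ± 2.5 to 199.8 ± 9.17 CPM per kb. The 4 listed lysyl oxidases together stood at 379.8 ± 11.1 per 1000 of fibrillar chain level (Col1a1, Col1a2, Col3a1, Col5a1, Col5a2, Col5a3 and Col11a1) in control DMSO cells and at 312 ± 10.7 with thapsigargin. Knockdown cells held 424 ± 7.77 and 371 ± 32.7, the latter overlapping with control DMSO cells. Lysyl hydroxylases ran from 78.6 ± 2.18 in control DMSO cells over 104 ± 3.23 in treated control and 137 ± 8.68 in knockdown DMSO cells to 164 ± 13.8 in treated knockdown cells, with no overlap. P4ha1 and P4ha2 together stood at 105 ± 2.14 and 150.1 ± 7.4 in control cells and at 129 ± 7.32 and 153 ± 10.8 in knockdown cells. With P4ha3 in the sum the alpha subunits stood at 116 ± 2.28 and 161 ± 7.23 in control cells and at 145 ± 9.09 and 175 ± 11.6 in knockdown cells. With Loxl4 in theirs the oxidases stood at 384 ± 11.3 and 324 ± 10.6 in control cells and at 434 ± 8.12 and 397 ± 33.6 in knockdown cells. The hydroxylase sums fell with thapsigargin, and the fibrillar chain sum fell by a larger factor, from 964 ± 8.1 to 498 ± 27.9 CPM per kb in control cells and from 590.2 ± 35.1 to 338 ± 21.5 in knockdown cells.

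Of the ER partners of these enzymes, 11 tested (12 listed), 5 rose and 6 fell with thapsigargin in control cells, with a median of -0.17, where 37.7% of all genes were called higher and 37% lower. P4hb, the beta subunit that pairs with P4ha1 or P4ha2 and is also a disulphide isomerase, rose from 1440.0 ± 20.6 to 2262 ± 85.4 CPM. Serpinh1, the collagen chaperone HSP47, rose from 1404 ± 49.6 to 2120.3 ± 51.4 CPM, and the prolyl 3-hydroxylase gene P3h1 rose from 90.4 ± 1.05 to 171 ± 1.83 CPM. In contrast Crtap, the partner of P3h1, fell from 152 ± 4.2 to 69.1 ± 1.23 CPM, P3h3 from 37.5 ± 1.32 to 17.4 ± 0.731 CPM and P3h4, which works with lysyl hydroxylase 1, from 175 ± 3.58 to 39.9 ± 2.26 CPM. In knockdown cells 4 rose and 6 fell (all genes, 35.4% and 34.4%). Serpinh1 did not pass there (0.08), and the difference of its effects passed (-0.51, SE 0.06, adjusted p = 1.12e-08), as did that of P3h1 (-0.48, SE 0.06, adjusted p = 1.04e-07). Between the cell populations under thapsigargin 2 partners were higher in the knockdown and 8 lower (all genes, 28.5% and 28.4%), among them P3h3 (-1.20, SE 0.08), Fkbp14 (-0.70, SE 0.06) and Serpinh1 (-0.68, SE 0.04), and in DMSO 1 was higher and 5 lower (all genes, 25% and 26.5%).

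The family members outside the list, Loxl4 and P4ha3, went their own ways. Loxl4 rose with thapsigargin from 16.3 ± 1 to 24.6 ± 1.49 CPM in control cells (0.59, SE 0.07) and from 25.8 ± 0.709 to 36.4 ± 0.949 CPM in knockdown cells (0.49, SE 0.06). It was higher in knockdown cells in DMSO (0.66, SE 0.07, adjusted p = 6.46e-10) and with thapsigargin (0.57, SE 0.06, adjusted p = 2.37e-09). P4ha3 fell from 32.5 ± 0.563 to 16.9 ± 2.75 CPM in control cells and from 29 ± 1.85 to 24.2 ± 2.32 CPM in knockdown cells. The difference of its effects was 0.69 (SE 0.12, adjusted p = 3.06e-05).

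Genes that process collagen or activate lysyl oxidase outside the cell fell in 10 of 11 tested (13 listed) with thapsigargin in control cells, with none higher and a median of -0.82, where 37% of all genes were called lower. Bmp1, the protease that cuts procollagen and the Lox propeptide, fell from 366 ± 17.1 to 191 ± 6.27 CPM. Efemp2, a fibulin that brings Lox to elastin, fell from 169.9 ± 4.45 to 75.5 ± 1.94 CPM, and Pcolce, which enhances Bmp1, from 613 ± 23.4 to 294 ± 10.1 CPM. In knockdown cells 8 fell and none rose (all genes, 34.4% and 35.4%), led by Fbln5 (-1.75, SE 0.08). Between the populations in DMSO 4 were higher and 7 lower (all genes, 25% and 26.5%), and under thapsigargin 3 were higher and 6 lower (all genes, 28.5% and 28.4%). Postn, a matricellular protein that binds Bmp1, was lower in knockdown cells in DMSO (-1.48, SE 0.15) and with thapsigargin (-1.20, SE 0.15), while Pcolce2 was higher (1.45, SE 0.05, and 1.70, SE 0.05). The largest of these changes was that of Tll1, higher in knockdown cells in DMSO (3.42, SE 0.34) and with thapsigargin (3.42, SE 0.35). Its level was low, 0.231 ± 0.153 CPM in control and 2.5 ± 0.756 CPM in knockdown DMSO cells. In the difference of the effects 6 were called positive and 2 negative, against 17.7% of all genes in each direction.

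Of 6 genes for copper, ascorbate and zinc supply 2 rose and 2 fell with thapsigargin in control cells, and none rose and 2 fell in knockdown cells. Over all genes 37.7% rose and 37% fell in control cells, and 35.4% and 34.4% in knockdown cells. Atox1, which hands copper to the secretory pathway, fell in control cells (-0.67, SE 0.07) and in knockdown cells (-0.67, SE 0.07). It was higher in knockdown cells in DMSO (0.46, SE 0.06). Atp7a, the pump that loads lysyl oxidases with copper, did not pass in either cell population (0.27 and -0.27). In knockdown DMSO cells 3 of the 6 were higher and 1 lower (all genes, 25% and 26.5%), and under thapsigargin 1 was higher and 2 lower (all genes, 28.5% and 28.4%).

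P4ha1, P4ha2, Plod1, Plod2, Lox and Loxl2 are known targets of the hypoxia-inducible factor, so 14 other such targets were read beside them. With thapsigargin in control cells 7 rose and 7 fell, with a median of -0.13, where 37.7% of all genes rose and 37% fell. Ero1l, an ER oxidase (3.07, SE 0.05), Ndrg1 (2.24, SE 0.05) and Vegfa, the vascular growth factor (1.31, SE 0.06), rose, whereas Ldha, lactate dehydrogenase (-0.87, SE 0.05), fell. Ero1l, Ndrg1 and Vegfa are also known stress-induced genes. In knockdown cells 4 rose and 9 fell (all genes, 35.4% and 34.4%). Under thapsigargin 12 of the 14 were lower in knockdown cells and none higher, where 28.4% of all genes were lower and 28.5% higher. The median was -0.87, led by Ero1l (-2.28, SE 0.05), the glucose transporter gene Slc2a1 (-1.69, SE 0.05) and Egln3, an oxygen sensor (-1.66, SE 0.06). In DMSO 8 were lower and 1 higher (all genes, 26.5% and 25%), and the lower ones included the kinase gene Pdk1 (-1.48, SE 0.07) and Bnip3 (-1.09, SE 0.13). Of the 6 enzyme genes named as such targets, P4ha1, P4ha2, Plod1 and Lox were lower in knockdown cells in DMSO and with thapsigargin. Over all genes 26.5% were called lower in DMSO and 28.4% with thapsigargin. The Plod1 call with thapsigargin was lost without control thapsigargin replicate 3 (edgeR, adjusted p = 0.0502). Loxl2 was lower in DMSO (-0.40) and did not pass with thapsigargin (0.02). Plod2 went the other way in DMSO, where it was called higher (0.15), a call lost in some fits without 1 library. With thapsigargin Plod2 did not pass (0.06). Among the enzyme genes outside these 6, Loxl1 was lower in DMSO (-1.25) and with thapsigargin (-0.59). Loxl3 and Pxdn were lower in DMSO (-0.14 each), and Plod3 was higher in both comparisons. Being lower was thus not particular to the named targets.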

How the data were processed

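Gene counts were analysed for 12 libraries in 4 groups of 3. The authors deposited raw counts per gene, as the files show. Poly(A) RNA was sequenced, per the labels' protocols, and the submitters' processing notes name Trim Galore, STAR 2.5.3a, bedtools 2.31.0, DESeq2 and the mm10 and hg38 builds. The counter's settings, strand and annotation are not given in the sources used here. Entries that name no gene held 13.32% to 14.61% of reads and were left out. Of 53801 identifiers, 53706 matched GENCODE vM21 (GRCm38), which gave symbols, positions and lengths.

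All libraries were fitted together with edgeR 4.0.16 (TMM, filterByExpr, robust quasi-likelihood, 8 residual degrees of freedom), which tested 15828 genes. P-values were adjusted by Benjamini and Hochberg over all of them, with calls under 0.05. Approximate standard errors came from dividing each absolute log2 change by the root of its F statistic. The pipeline was tested on simulated data. The genes and lists were chosen with earlier results of these data known. From each list, the rule allowed up to 4 called genes by size of change, if any group averaged 5 CPM or more. P4hb, P3h1, Serpinh1, Atp7a, Tll1 and Col11a1 were also named, after their values were seen. Since no label states that replicates came from separate cultures, the p-values cover only the spread among the sequenced libraries, which may be technical. Replicate numbers did not pair libraries (correlations of -0.0302 to 0.0767 over 18 same-number pairs). Promoter windows came from RefSeq (GRCm38.p6). Results were recomputed with DESeq2 1.42.0, with limma-voom (limma 3.58.1), with other filters, scalings and thresholds, with a replicate block, with only the groups compared and without each library in turn. Scaling by total reads, and sums with Loxl4 and P4ha3, were added after the data were seen. Scripts ran in R 4.3.3 and in Python 3.11.15 with scipy 1.17.1, pandas 2.3.3 and matplotlib 3.10.9.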

Additional observations from a re-analysis of the deposited data

Results flagged for a closer look

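The thapsigargin effect differed between the cell populations by a test of the difference itself for 4 of the 10 enzyme genes (edgeR). Over all genes 17.7% were called in each direction. The effect in knockdown cells minus that in control cells was 0.66 for Loxl1, 0.42 for Loxl2 and 0.21 for Lox, and -0.15 for P4ha1. The same direction held under every alternative for Loxl1, Loxl2 and Lox, and reversed for P4ha1 with total reads (0.0049). The P4ha1 call was also lost in several fits without 1 library, such as control DMSO replicate 1 (adjusted p = 0.116). Groups of 3 libraries were not screened for single outlying libraries.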

How the results depend on the processing

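All 10 enzyme genes kept their fall with thapsigargin, and its call, in both cell populations under every alternative run. For the difference of the thapsigargin effects, 2 of the 10 were called at an adjusted p under 0.01 in place of 4, a tighter limit by construction. Without each library in turn the number called was 3 to 4 there, 9 to 10 for the knockdown in DMSO and 5 to 6 under thapsigargin. Some values changed sign, all near 0. In the edgeR fit used for the calls above none of them was called except P4ha1 in the difference of the effects (-0.15, adjusted p = 0.0423). For the knockdown under thapsigargin these were Loxl3 (0.01 without a filter, 0.0023 with only the groups compared, 0.03 with upper quartile scaling, 0.13 with total reads, and -0.04 to 0.02 without one library), Pxdn (-0.01 to 0.01 without one library) and Loxl2 (-0.01 to 0.04 without one library, below 0 without knockdown thapsigargin replicate 2). In the difference of the effects they were Plod1 (-0.01 with a stricter filter, -0.03 to 0.04 without one library) and, with total reads, Plod2 (0.07), P4ha1 (0.0049) and P4ha2 (0.10). Of the values with changed sign, that of Loxl3 with total reads was itself called (edgeR, adjusted p = 0.0304). Apart from the stated constructions, the cause was not tested. With the replicate number as a replicate block, 10, 6, 10, 10 and 4 enzyme genes were called for the knockdown in DMSO, the knockdown under thapsigargin, thapsigargin in control cells, thapsigargin in knockdown cells and the difference, as without it. The block gave 8280, 9110, 11855, 11117 and 5771 calls over all genes, and 4 of 12 libraries correlated best with their own number. Depth did not limit the enzyme genes, whose lowest count in a library was 546, but 3 libraries a group keep exact tests of shares from going below 0.1.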
